A study of Mus musculus with 9 samples.

Results

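The nuclear genes for the respiratory chain and ATP synthase were compared between Ts1Rhr, HMGN1-overexpressing and wild-type mouse pro-B cultures. They were the 82 of 23398 rows of the expression tables whose symbols start as Nduf, Sdh, Uqcr, Cox or Atp5 subunit names do, chosen by name and not by value. Of these, 35 code for complex I, 4 for complex II, 8 for complex III, 18 for complex IV and 15 for complex V, which is the ATP synthase. The other 2, Atp5s and Atp5sl, were kept apart because they are named after the ATP synthase but are not counted among its subunits. A mean raw level of at least 1 FPKM over the 9 libraries was reached by 76 of the 82, and these were tested. FPKM counts sequenced fragments per length of transcript and per mapped total, so levels of different genes can be set side by side.

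The respiratory chain sits in the inner mitochondrial membrane. Complexes I and II feed electrons from NADH and succinate into ubiquinone, complex III passes them to cytochrome c, and complex IV gives them to oxygen. Complexes I, III and IV pump protons, and complex V uses the proton gradient to make ATP. Several complex IV subunits exist as a general form and a form restricted to tissues such as heart, muscle, lung or testis, and dividing lymphoid progenitors need this machinery for energy and for precursors of nucleotide synthesis. Subunits coded by the mitochondrial genome have no row under the 26 symbols searched.

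The groups were Ts1Rhr (3 libraries), HMGN1 overexpression (HMGN1_OE, 3 libraries) and wild-type littermates (WT, 3 libraries). Ts1Rhr mice carry an extra copy of the part of mouse chromosome 16 between Cbr1 and Fam3b, and their labelled background is an F1 of FVB and C57BL/6. The HMGN1_OE mice are labelled C57BL/6, with no promoter or transgene species given, and no background is given for WT. Genotype and strain therefore cannot be told apart between the mutants, and strain may differ from WT too. In every group, marrow of mice aged 6 to 8 weeks was grown for 7 days in methylcellulose with interleukin-7, the colonies of a culture were pooled, and spike-in RNA was added to RNA from equal cell numbers. The labels call the libraries of a group biological replicates, and the animals behind them are not given, so a p-value here speaks of the spread among these 9 samples only.

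The authors deposited raw FPKM and a version normalised further, called normalised FPKM here. The raw library medians of tested genes were nearly equal, so raw values cannot show a shift of all genes. Hmgn1, the gene raised in both mutants by design, had 127, 122 and 115 normalised FPKM in the Ts1Rhr libraries, 76.9, 101 and 75.8 in the HMGN1_OE libraries, and 74.8, 71.5 and 46.9 in the WT libraries. The HMGN1_OE libraries overlapped neither other group, and their fold over WT did not pass (log2 0.41, SE 0.26, limma, adjusted p = 0.54). Ts1Rhr against WT was at log2 0.94 (adjusted p = 0.0909), and at 1.03 on raw FPKM, where it passed (limma, adjusted p = 0.00923). Ts1Rhr replicate 3 was the only library with a high level of the Y-linked Ddx3y (41.8 raw FPKM), and it had 0.443 raw FPKM of Xist, against 94.2 or more elsewhere. WT replicate 1 had 10510 raw FPKM of the ribosomal RNA row Rn45s, the highest of the 9 libraries. Of the pro-B marker list, 12 of 12 rows were tested. Of the list of macrophage, monocyte and neutrophil markers (myeloid markers below), 13 of 14 rows were tested. Its gene Lyz2 had the highest mean level of all tested genes, at 18768 raw FPKM. The myeloid list held a larger share of normalised FPKM than the pro-B list in every library, as given below. Erythroid markers reached the tested level in 0 of 5, and Hba-a1 and Hbb-b1 were at 0 in every library.

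Promoters are shown first because NRF1, the ETS factor GABP and YY1 are known regulators of respiratory chain genes. The RefSeq table (GRCm38.p6) held promoters for 69 of the 82 genes. Capitals mark the NRF1 core GCATGCGC and the ETS core CCGGAAG on either strand, in the 250 bases before the annotated start. Of the 69, 50 held neither of these nor the YY1 core AAGATGGC there, and 19 held 1 or more. General complex IV forms such as Cox5a, Cox7a2 and Cox8a were among the 50, so the 5 shown are not typical. The 5 shown are a general complex IV subunit whose promoter holds both motifs (Cox6a1), genes with 1 motif that are described below (Sdhb, Ndufa6, Uqcr11), and a tissue isoform with none (Cox7a1). Their positions in GRCm38.p6 are chr5:115348959-115349208 on the minus strand for Cox6a1, chr4:140961021-140961270 on the plus strand for Sdhb, chr15:82354292-82354541 on the minus strand for Ndufa6, chr10:80406822-80407071 on the minus strand for Uqcr11 and chr7:30183921-30184170 on the plus strand for Cox7a1.
Cox6a1: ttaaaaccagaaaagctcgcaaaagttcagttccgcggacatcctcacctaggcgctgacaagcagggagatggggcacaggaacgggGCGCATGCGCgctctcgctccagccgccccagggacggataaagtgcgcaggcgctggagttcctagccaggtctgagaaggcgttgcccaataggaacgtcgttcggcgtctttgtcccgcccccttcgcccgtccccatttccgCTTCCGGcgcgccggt
Sdhb: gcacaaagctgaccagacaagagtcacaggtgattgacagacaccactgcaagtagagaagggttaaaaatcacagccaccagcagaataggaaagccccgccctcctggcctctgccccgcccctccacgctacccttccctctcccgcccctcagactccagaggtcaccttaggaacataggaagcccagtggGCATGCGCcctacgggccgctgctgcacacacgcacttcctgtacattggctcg
Ndufa6: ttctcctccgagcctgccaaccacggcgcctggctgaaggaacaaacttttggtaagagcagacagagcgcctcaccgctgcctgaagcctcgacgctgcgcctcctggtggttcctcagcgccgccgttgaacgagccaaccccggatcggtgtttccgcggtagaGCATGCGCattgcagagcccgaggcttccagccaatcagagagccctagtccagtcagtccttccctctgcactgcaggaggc
Uqcr11: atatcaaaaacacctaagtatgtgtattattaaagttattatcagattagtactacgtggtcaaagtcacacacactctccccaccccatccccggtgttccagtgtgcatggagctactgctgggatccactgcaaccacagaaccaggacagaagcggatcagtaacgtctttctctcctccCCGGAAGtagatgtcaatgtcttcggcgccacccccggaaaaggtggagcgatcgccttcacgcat
Cox7a1: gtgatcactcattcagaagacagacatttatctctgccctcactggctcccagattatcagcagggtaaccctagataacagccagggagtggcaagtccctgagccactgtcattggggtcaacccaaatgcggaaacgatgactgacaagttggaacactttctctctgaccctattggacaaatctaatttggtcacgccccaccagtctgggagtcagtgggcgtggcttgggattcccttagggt

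In Cox6a1, the run of capitals that starts with GCGC is the NRF1 core and its reverse complement overlapping each other. Over the whole 300-base window of the table, 50 of which follow the start, the NRF1 core was in 10 of 69 genes (14.5%), against 6.38% of all tested genes and 3.05% of all genes of the table. The YY1 core AAGATGGC was in 11 of 69 (15.9%), against 5.85% of tested genes, and only 2 of 69 had it in the 250 bases before the start. The ETS core was in 16 of 69 (23.2%), close to the 22.2% of all tested genes. In the marked 250 bases, the NRF1 core was in 8 of 69 (11.6%), against 5.35% of tested genes. The ETS core was there in 12 of 69 (17.4%), against 17.2%. A match is a description of letters, and no binding was measured.

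In their levels, these genes were among the more abundant of the pro-B cultures. Their median level of 61.1 raw FPKM lay above 87.7% of all tested genes, and the 76 together accounted for 1.89% to 2.32% of a library's raw FPKM sum. Complex V had the highest median (143 FPKM), followed by complex II (99.8), complex III (85.7), complex IV (83.4) and complex I (37.0). Within complexes the spread was wider than between them. The ratio of highest to lowest gene ran from 4.41 in complex II to 1527 in complex IV (Ndufa4 to Cox7a1), and was 160 in complex I.

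The most abundant gene was Ndufa4, a subunit first assigned to complex I and now placed in complex IV. It had 1777, 1824 and 1726 raw FPKM in Ts1Rhr, 1678, 1951 and 1723 in HMGN1_OE, and 1947, 1768 and 1540 in WT, and all 3 groups overlapped. In complex I, the accessory subunit gene Ndufa2 was highest (417 FPKM over the 9 libraries) and Ndufa11 lowest (2.61 FPKM). In complex II, Sdhb, the iron-sulphur subunit, led with 189 FPKM and the membrane anchor Sdhc was lowest with 42.8 FPKM. Complex III ran from Uqcrb (193 FPKM) to Uqcrq (17.5 FPKM), both small subunits, and complex V from Atp5g3 (604 FPKM) to Atp5g1 (14.7 FPKM), both copies of the c-ring gene. For 21 of the 82, another gene holds a near-identical copy (at least 95% identity over 200 bases), a pseudogene in 19 cases, and how such fragments were assigned is not given. Atp5l had 9 such copies, Atp5h 4, and Uqcrb and Atp5o 3 each, so their levels are uncertain.

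**Figure D1:**
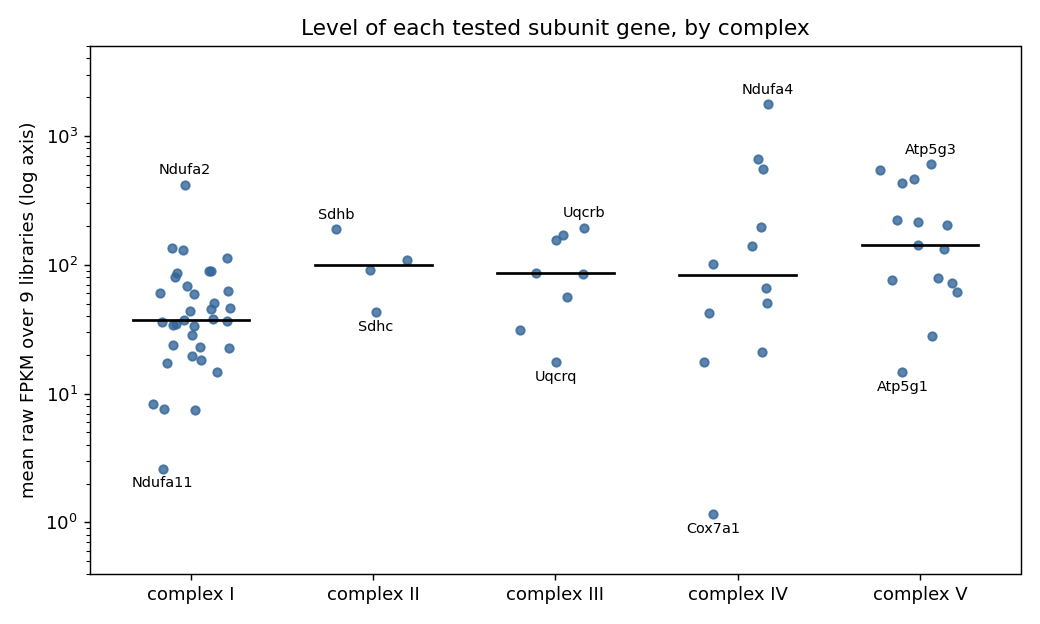
Mean raw FPKM over the 9 libraries (log axis) for each tested subunit gene, as 1 point per gene in complexes I to V, with a line at each complex's median and the highest and lowest gene named. Ndufa4 lies at the top of complex IV and Cox7a1, a muscle isoform, at its bottom.

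General isoforms of complex IV dominated in every library. Cox6a1 made up 99.5% to 100% of its summed raw FPKM with Cox6a2, the heart and muscle form, and Cox6b1 made up 99.0% to 100% of its sum with Cox6b2, the testis form. Cox7b2, Cox8b and Cox8c were listed at 0 in all 9 libraries, where the general forms Cox7b and Cox8a averaged 17.7 and 50.3 raw FPKM. Cox6b2 and Ndufa4l2 were each above 0 in 1 library, Ts1Rhr replicate 2. Cox4i1, which lies outside the name rule, averaged 117 raw FPKM, whereas its lung form Cox4i2 was above 0 in WT replicate 2 alone, at 0.27 FPKM. Cox6a2, Cox6b2, Cox7b2, Cox8b, Cox8c and Ndufa4l2 are the 6 genes that did not reach the tested level.

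The exception was Cox7a1, the heart and muscle form of subunit VIIa. It had 1.29, 0.632 and 4.31 raw FPKM in Ts1Rhr, 0.526 FPKM in HMGN1_OE replicate 2 with the other 2 HMGN1_OE libraries listed at 0, and 1.91 and 1.77 FPKM in WT replicates 1 and 2 with WT replicate 3 listed at 0. Its general form Cox7a2 had 38.2, 17.4 and 13.8 raw FPKM in Ts1Rhr, 20.5, 25 and 20.5 in HMGN1_OE, and 17.3, 18.6 and 18 in WT. Cox7a1 thus reached 23.9% of the pair in Ts1Rhr replicate 3, and 0% in the 3 libraries at 0. A listed 0 can be a failed estimate, so no fold is given, and no difference between the groups passed (limma on normalised FPKM, adjusted p = 0.503 for Ts1Rhr against WT).

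The c ring of ATP synthase is built from 1 mature protein that 3 genes code for. Atp5g3 gave 63.1% to 76.7% of their summed raw FPKM, Atp5g2 21.3% to 35.5%, and Atp5g1 1.42% to 2.19%. That order held in each of the 9 libraries. Atp5g1 and Atp5g2 have near-identical copies elsewhere, which their shares may include.

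Normalised FPKM differed between libraries of a group for the whole gene set at once. The summed normalised FPKM of the 76 genes was 9497, 9042 and 8702 in Ts1Rhr, 11108, 15215 and 10366 in HMGN1_OE, and 15468, 11848 and 7434 in WT. WT replicates 1 and 3 thus bracketed all Ts1Rhr libraries. HMGN1_OE replicate 2 held the highest value for 30 of the 76 genes and WT replicate 1 for 26, while WT replicate 3 held the lowest for 32. As a share of all normalised FPKM, the sums were closer, at 2.12%, 2.05% and 2.01% in Ts1Rhr, 2.06%, 2.10% and 2.28% in HMGN1_OE, and 1.87%, 2.14% and 1.89% in WT. The median SD of a gene within groups was 0.42 on the log2 scale in normalised FPKM and 0.25 in raw FPKM.

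Between Ts1Rhr and WT, most respiratory chain genes lay lower in Ts1Rhr on average, while no single gene passed the test on normalised FPKM. Of 76 genes, 58 were lower and 18 higher, with a median log2 fold change of -0.23 against 0.12 over all 10878 tested genes. Of those 10878, 4359 were lower. On raw FPKM, 54 of the 76 were lower, with a median of -0.17 against 0.01 for all tested genes, of which 5323 were lower. The count of lower genes on normalised FPKM became 42 when WT replicate 1 was left out, 52 when Ts1Rhr replicate 3 was, and 67 when WT replicate 3 was. By limma with Benjamini-Hochberg adjustment, 0 of the 76 were called on normalised FPKM, against 0.57% of all tested genes, and 2 had an unadjusted p under 0.05, against 19.5% of all tested genes. On raw FPKM, 1 was called, against a background of 8.85%, and 13 had an unadjusted p under 0.05, against 30.9%. The raw calls changed with the libraries kept. Without Ts1Rhr replicate 2 or 3, or WT replicate 1 or 3, only 1 to 3 of all tested genes and 0 respiratory chain genes were called. Without Ts1Rhr replicate 1 the counts were 293 and 3, and without WT replicate 2 they were 535 and 0. Each such fit also has fewer libraries, and the cause was not tested.

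All 5 complexes had a median below 0 in Ts1Rhr against WT, on both tables. On normalised FPKM it was -0.24 for complex I, -0.36 for complex II, -0.18 for complex III, -0.22 for complex IV and -0.26 for complex V, and on raw FPKM -0.20, -0.31, -0.12, -0.12 and -0.22 in the same order. Complex II was lower in 4 of 4 genes, complex V in 13 of 15 and complex I in 25 of 35. Within complex I, the 7 core subunits, which carry the redox centres and the quinone site, had a median of 0.04 with 3 lower, and the 28 accessory subunits a median of -0.31 with 22 lower. On raw FPKM the core median was -0.04 with 4 lower, and the accessory median -0.27 with 22 lower. In complex III, all 5 small subunits were lower on normalised FPKM (median -0.23). Uqcrfs1, the Rieske iron-sulphur gene and the only catalytic subunit of complex III under the name rule, was at 0.18. On raw FPKM, 4 of the 5 small subunits were lower and 1 higher (median -0.23), and Uqcrfs1 was at 0.26. These are counts and medians over genes, and no difference between complexes was tested.

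**Figure D2:**
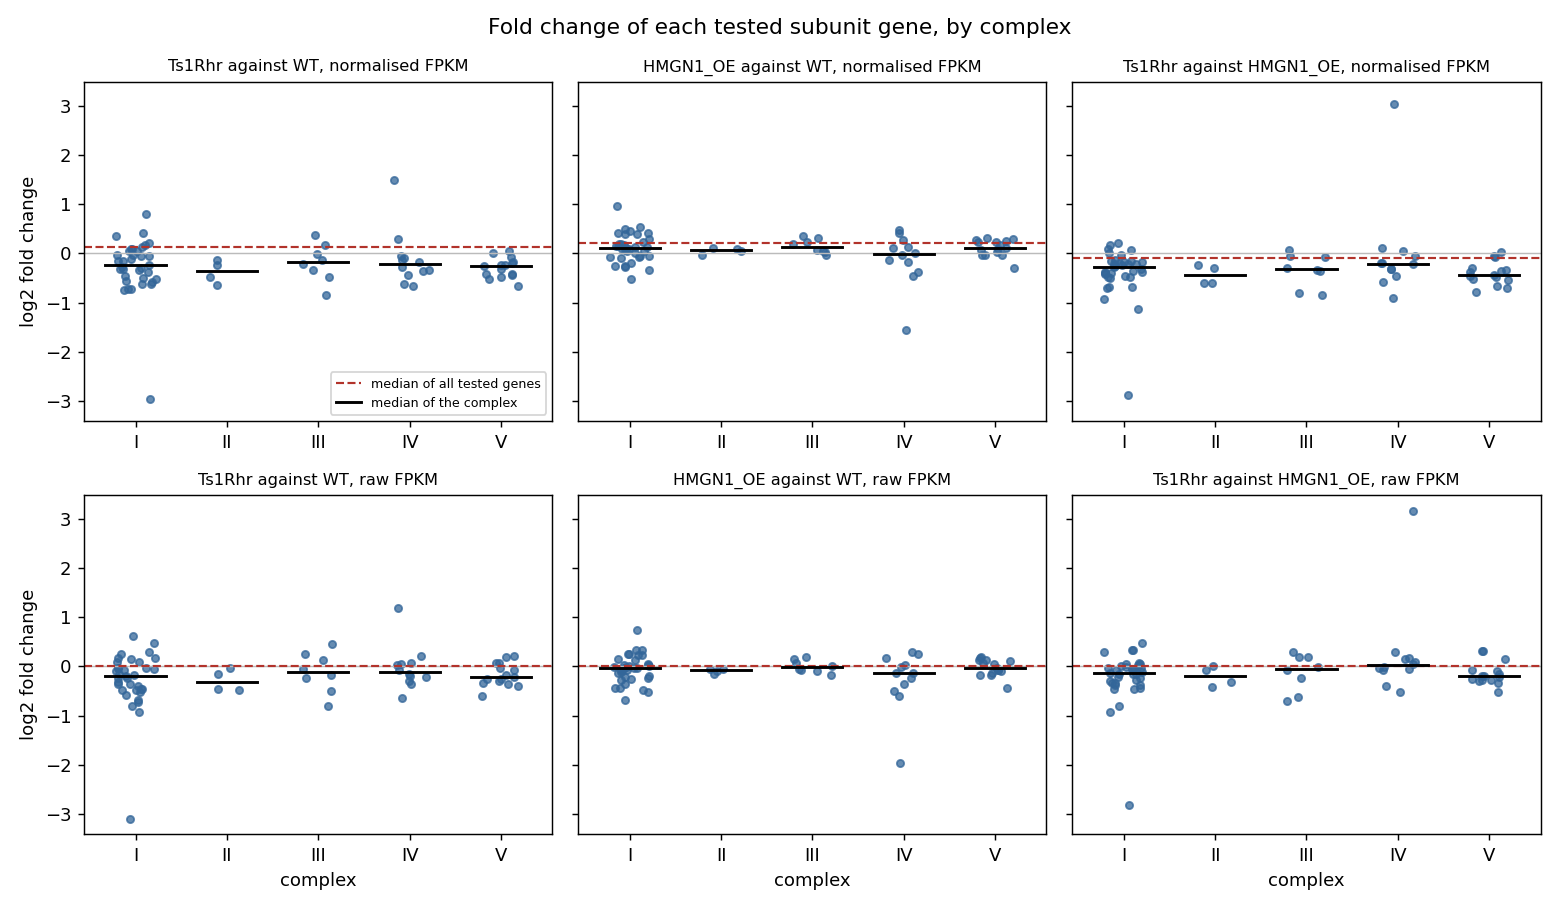
Log2 fold change of each tested gene (points) by complex, for Ts1Rhr against WT, HMGN1_OE against WT and Ts1Rhr against HMGN1_OE, on normalised FPKM (top) and raw FPKM (bottom). Black lines are complex medians and the dashed line is the median of all tested genes. In the Ts1Rhr against WT panels every complex median lies below the dashed line.

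Uqcr11, the smallest complex III subunit, was the gene called on raw FPKM. Its raw level was 46.8, 38.0 and 33.9 FPKM in Ts1Rhr, against 92.1, 61.3 and 55.8 in WT, and the groups did not overlap. It fell by 0.79 on the log2 scale (SE 0.19, limma, adjusted p = 0.0374). On normalised FPKM it had 48.9, 37.3 and 31.0 in Ts1Rhr, against 113, 63.7 and 44.6 in WT, and the groups overlapped through Ts1Rhr replicate 1 and WT replicate 3 (log2 -0.84, SE 0.32, limma, adjusted p = 0.175). With 1 library left out at a time, the raw adjusted p ranged from 0.0352 to 0.153, and the call was lost without Ts1Rhr replicate 2 or 3 or any 1 WT library.

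Ndufs5, an accessory subunit on the intermembrane-space side of complex I, had the lowest fold. Its raw level was 0.01, 4.98 and 3.40 FPKM in Ts1Rhr, 5.35, 12.7 and 9.60 in HMGN1_OE, and 14.5, 8.84 and 9.24 in WT. On this table all Ts1Rhr libraries lay below both other groups, while on normalised FPKM Ts1Rhr replicate 2 (5.52) lay above HMGN1_OE replicate 1 (4.73). The entry of 0.01 in Ts1Rhr replicate 1 can be a failed estimate. On normalised FPKM the log2 fold change against WT was -2.96 (SE 0.95, limma, adjusted p = 0.129), and -1.18 without that library. A near-identical pseudogene copy exists for Ndufs5.

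Sdhb had 187, 125 and 134 normalised FPKM in Ts1Rhr, against 333, 230 and 152 in WT, overlapping through Ts1Rhr replicate 1 (log2 -0.63, SE 0.32, limma, adjusted p = 0.283). Ndufb8, an accessory subunit of the membrane arm of complex I, had 93.2, 61.3 and 55.7 normalised FPKM in Ts1Rhr, against 120, 116 and 72.5 in WT (log2 -0.56, SE 0.28, limma, adjusted p = 0.287). Neither gene's difference passed, and 1 Ts1Rhr library of each lay within the WT range.

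The highest moderated statistic on normalised FPKM was that of Ndufa6, an accessory complex I subunit that binds the mitochondrial acyl carrier protein. It had 12.1, 3.88 and 10.7 normalised FPKM in Ts1Rhr, against 7.31, 4.04 and 3.20 in WT (log2 0.80, SE 0.39, limma, adjusted p = 0.264). Ts1Rhr replicates 1 and 3 lay above all WT libraries and replicate 2 within them. Uqcrc2, a core protein of complex III, had 89.4, 134 and 86.0 raw FPKM in Ts1Rhr, against 82.3, 69.8 and 70.5 in WT, without overlap (log2 0.45, SE 0.17, limma, adjusted p = 0.113). On normalised FPKM its groups overlapped. Atp5s, known as coupling factor B, had 8.02, 3.93 and 6.73 normalised FPKM in Ts1Rhr, against 4.14, 3.67 and 3.85 in WT (log2 0.62, SE 0.35, limma, adjusted p = 0.334).

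On normalised FPKM, the Ts1Rhr libraries lay above all WT libraries for 0 of the 76 genes, against 21.7% of all tested genes, and below them for 2 (2.63%), against 8.43%. The 2 were Ndufs5 and Atp5e, the epsilon subunit of the F1 part of ATP synthase, which is named after its values were seen because its groups did not overlap. Atp5e had 64.6, 62.8 and 60.1 normalised FPKM in Ts1Rhr, against 177, 80.3 and 69.0 in WT (log2 -0.67, SE 0.35, limma, adjusted p = 0.291). On raw FPKM, 2 genes lay above without overlap, against 19.1% of all tested genes, and 7 (9.21%) lay below, against 18.5%. The 2 above were Uqcrc2 and Uqcrh, the hinge protein of complex III, also named after seeing its values, with 168, 160 and 168 raw FPKM in Ts1Rhr, against 150, 151 and 153 in WT. All 4 shares lay below those of all tested genes.

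**Figure D3:**
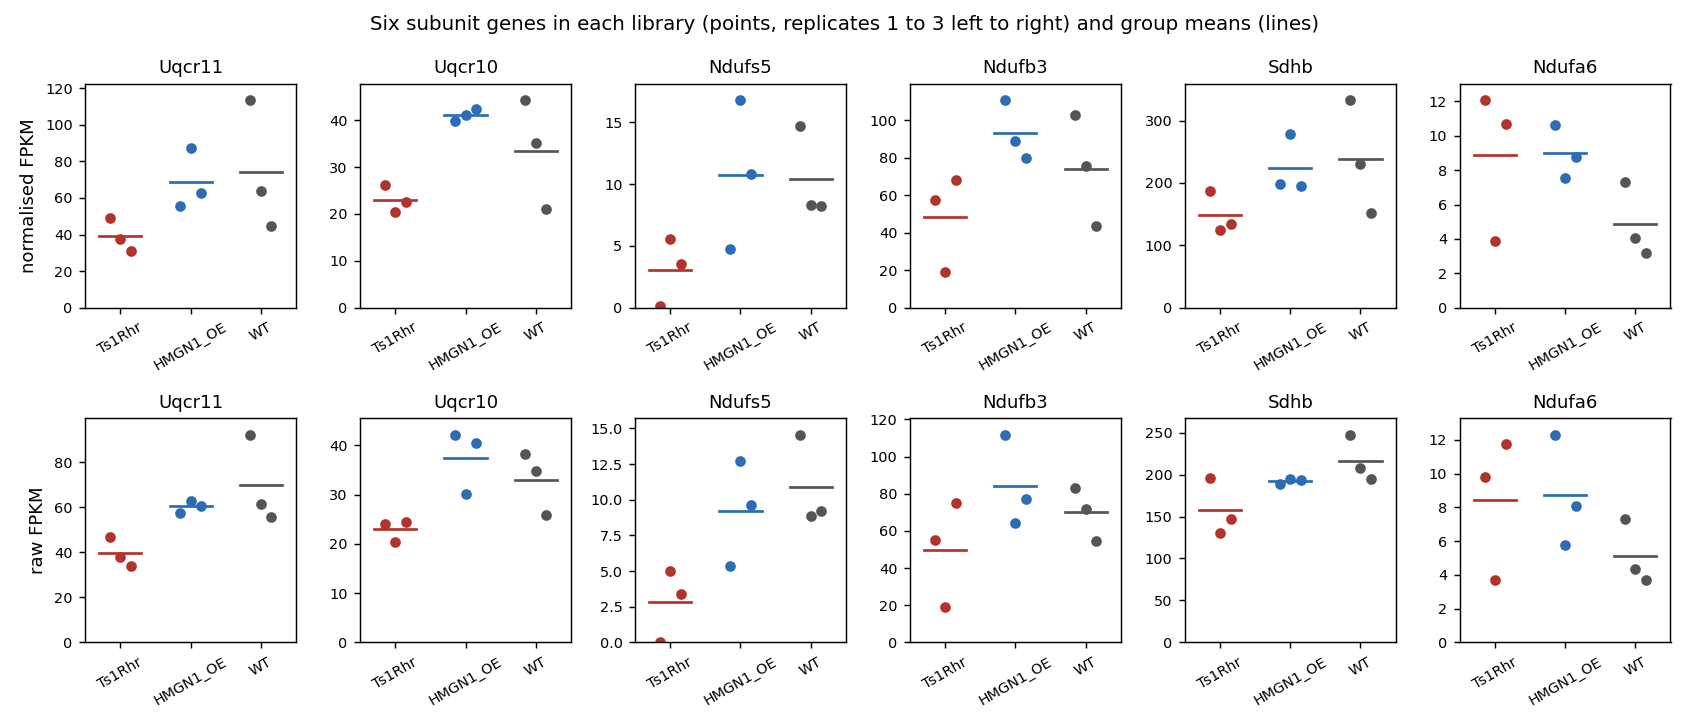
Normalised (top) and raw (bottom) FPKM of 6 genes in each library, with Ts1Rhr left, HMGN1_OE in the middle and WT right, and lines at group means. The Ts1Rhr points of Uqcr11 lie below the WT points on raw FPKM and overlap them on normalised FPKM, and Ndufs5 lies near 0 in Ts1Rhr replicate 1.

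The fold changes varied with gene level and transcript length, in these genes and in all others. On normalised FPKM, tested genes of 200 or more FPKM had a median log2 fold change of -0.33 for Ts1Rhr against WT, close to the -0.34 of the 11 respiratory chain genes at that level. Genes of 10 to 50 FPKM had a median of 0.10 at large and -0.23 in the 26 respiratory chain genes, of which 23 were lower. On raw FPKM, the same class stood at 0.03 at large and -0.25 in these genes, of which 24 were lower. The respiratory chain genes are short, with a median transcript of 655 bases against 2124 over all tested genes with a length. Below 700 bases, the normalised median was -0.04 over 737 genes and -0.33 over the 40 respiratory chain genes. Across genes, the rank correlation of fold change with length was 0.18 over 10442 genes and 0.34 over the 76, where genes share libraries and are not replicates. The part of level, of length or of RNA quality in the fold changes was not tested.

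**Figure D4:**
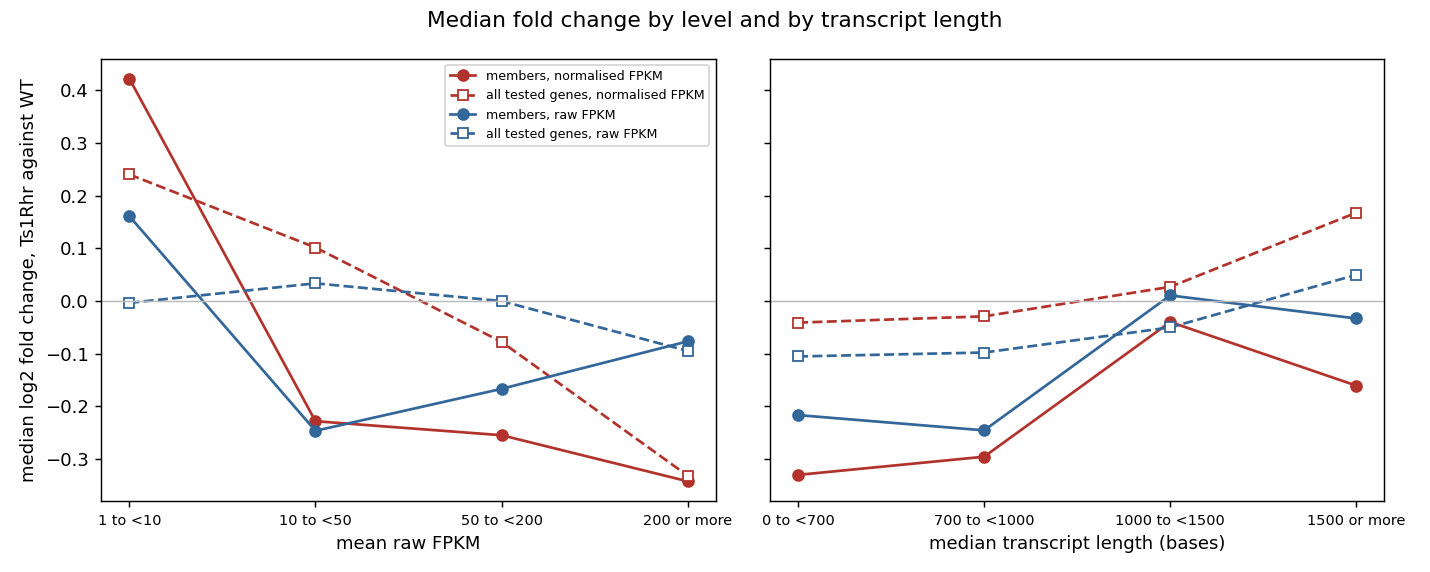
Median log2 fold change, Ts1Rhr against WT, by class of mean raw FPKM (left) and of transcript length (right), for the respiratory chain genes (filled points) and all tested genes (open squares), on normalised FPKM (red) and raw FPKM (blue). At 200 or more FPKM both sets meet, and at 10 to 50 FPKM the respiratory chain genes lie lower on both tables.

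Cell type markers also differed in this contrast. All 13 tested myeloid markers were lower in Ts1Rhr than in WT (median log2 -0.97 on normalised FPKM), with 0 called on normalised and 5 on raw FPKM. The summed share of the list was 2.69% to 3.59% of normalised FPKM in Ts1Rhr, 2.93% to 6.48% in HMGN1_OE, and 4.85% to 8.01% in WT. None of these myeloid markers was at 0 in every library. Of 12 pro-B markers, 10 were higher in Ts1Rhr (median 0.67), with 0 called on normalised and 5 on raw FPKM, and the list made up 0.268% to 0.344% of normalised FPKM in Ts1Rhr, 0.244% to 0.366% in HMGN1_OE, and 0.131% to 0.237% in WT. The stromal markers Sparc, Fn1 and Col1a2 were called lower in Ts1Rhr (log2 -3.10, -2.77 and -2.71, limma, adjusted p = 0.00718, 0.00884 and 0.0327). They are the 3 tested of 5 stromal marker rows, as Col1a1 and Col3a1 did not reach the tested level. Their mean levels were low, from 3.04 (Col1a2) to 5.66 raw FPKM (Sparc). In bulk libraries, fewer cells of a type and less RNA per cell cannot be told apart, and the part of these differences in the respiratory chain genes was not tested.

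Other mitochondrial gene lists took other values in Ts1Rhr against WT. Mitochondrial ribosomal protein genes, also products of the nucleus that serve mitochondria, had a median of 0.05 on normalised FPKM over 76 genes (30 lower, 0 called), and tricarboxylic acid cycle genes 0.02 over 16 (6 lower, 0 called). Assembly factors of the complexes had a median of 0.25 over 34 (8 lower, 0 called). Their median level was 9.02 raw FPKM, and all tested genes of 1 to 10 FPKM had a median of 0.24 on normalised FPKM. On raw FPKM the medians of these lists were -0.03, 0.05 and 0.08 in the same order, against 0.01 over all tested genes. The 18 regulators of mitochondrial biogenesis had a median of 0.42, with 16 higher and 0 called. On raw FPKM their median was 0.31, with 15 higher. There limma called 2 of the 18, a share near the 8.85% it called of all tested genes. The count is therefore no result about these regulators. The 2 were Nrf1 (log2 0.72, limma, adjusted p = 0.0325) and Gabpb1 (0.82, limma, adjusted p = 0.033), both higher. They were named only after the raw calls were seen. Without Ts1Rhr replicate 2 or 3, or WT replicate 1 or 3, raw FPKM gave only 1 to 3 calls over all tested genes. Nrf1 codes for the factor whose core is marked above and Gabpb1 for the partner of the ETS factor GABPA. A link between their levels and those of the respiratory chain genes was not tested. Cytosolic ribosomal protein genes, which are also short and abundant, had a median of -0.10 on normalised and 0.08 on raw FPKM over 79 genes. The 7 tested subunits or partners outside the name rule, such as Cox4i1, had a median of -0.21, with 4 lower and 0 called. On raw FPKM this median was -0.05, also with 4 lower.

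Between HMGN1_OE and WT, no respiratory chain gene passed, and the direction of the median depended on the scaling. On normalised FPKM 53 of 76 were higher, where 7904 of all 10878 tested genes were, with a median log2 fold change of 0.10 against 0.21. On raw FPKM 31 were higher, where 5617 of all tested genes were, with a median of -0.04 against 0.01. Without HMGN1_OE replicate 2 the normalised count was 30, and without WT replicate 3 it was 20. Complex medians on normalised FPKM lay between -0.01 (complex IV) and 0.13 (complex III). By limma, 0 were called on normalised FPKM (background 0.0919%) and 0 on raw FPKM (0.0368%). At an unadjusted p under 0.05 there was 1 on normalised FPKM, against 11.7% of all tested genes, and there were 3 on raw FPKM, against 14.6%. Myeloid markers were lower in HMGN1_OE in 13 of 13 (median log2 -0.41 on normalised FPKM, 0 called), the stromal markers Sparc and Col1a2 were called lower (log2 -3.02 and -3.07, limma, adjusted p = 0.0074 and 0.0256), and their part was not tested.

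Ndufa6 was the 1 gene under that threshold on normalised FPKM and also the 1 gene whose HMGN1_OE libraries all lay above WT, where 16.6% of all tested genes did so. It had 10.6, 7.56 and 8.75 normalised FPKM in HMGN1_OE, against 7.31, 4.04 and 3.20 in WT (log2 0.97, SE 0.39, limma, adjusted p = 0.355). On raw FPKM, HMGN1_OE replicate 2 stood at 5.80 FPKM, within the WT range. In the other direction, 0 of the 76 lay below WT without overlap on normalised FPKM, against 0.8% of all tested genes. Ndufv1 and Ndufs3, core subunits that bind NADH and border the quinone site, had log2 fold changes of 0.53 (SE 0.28) and 0.49 (SE 0.27), and the accessory subunit Ndufs4 0.45 (SE 0.29), with adjusted p from 0.469 to 0.553 by limma. Ndufs3 had 65.7, 69.4 and 62.6 raw FPKM in HMGN1_OE, against 55.7, 53.8 and 47.3 in WT (log2 0.34, SE 0.13, limma, adjusted p = 0.303).

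Ndufa1, a small membrane subunit of complex I coded on the X chromosome, had the lowest statistic in HMGN1_OE. It had 19.8, 24.1 and 22.2 raw FPKM in HMGN1_OE, against 31.3, 36.6 and 38.2 in WT (log2 -0.68, SE 0.16, limma, adjusted p = 0.227). On normalised FPKM, HMGN1_OE replicate 2 reached 33.1, within the WT range of 31.1 to 37.2. The small complex IV subunits Cox8a and Cox7c had log2 fold changes of -0.47 (SE 0.35) and -0.37 (SE 0.39) on normalised FPKM, with adjusted p of 0.606 and 0.708 by limma. Their lowest value stood in HMGN1_OE replicate 1, at 26.1 and 29.9 normalised FPKM.

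Between Ts1Rhr and HMGN1_OE, 65 of 76 genes were lower in Ts1Rhr on normalised FPKM, where 6796 of all 10878 tested genes were lower. The median log2 fold change of the 76 was -0.32, against -0.09 over all tested genes. On raw FPKM 53 were lower, where 5402 of all tested genes were, with a median of -0.08 against 0.00. Without HMGN1_OE replicate 2 the normalised count was 51. By limma, 0 were called on normalised FPKM and 0 on raw FPKM, where the background was 0% in both. At an unadjusted p under 0.05 there were 11 (14.5%) on normalised FPKM, against 4.37% of all tested genes, and 13 (17.1%) on raw FPKM, against 8.85%. Groups did not overlap for 16 of the 76 (21.1%) with Ts1Rhr lower, against 6.6% of all tested genes, and for 0 with Ts1Rhr higher, against 1.79%. On raw FPKM, 6 (7.89%) were lower without overlap, against 5.99%. Highly expressed genes shared the direction. On normalised FPKM, tested genes of 200 or more FPKM had a median of -0.44 and 93.4% were lower, as were 10 of the 11 respiratory chain genes there. At 50 to 200 FPKM, 82.3% of tested genes and 27 of 32 respiratory chain genes were lower (medians -0.23 and -0.27). At 10 to 50 FPKM, 68.0% and 24 of 26 were lower (medians -0.11 and -0.34). Myeloid markers were lower in 13 of 13 in Ts1Rhr (median -0.54, 0 called), and their part was not tested.

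Uqcr10, a small complex III subunit, had the lowest statistic. It had 26.1, 20.4 and 22.4 normalised FPKM in Ts1Rhr, against 39.8, 41.1 and 42.4 in HMGN1_OE, without overlap (log2 -0.85, SE 0.27, limma, adjusted p = 0.988). WT, with 44.3, 35.2 and 21.0, overlapped both groups. Ndufb3, an accessory subunit of the membrane arm of complex I, had 57.3, 19.0 and 68.4 normalised FPKM in Ts1Rhr, against 111, 89.1 and 79.7 in HMGN1_OE (log2 -1.13, SE 0.40, limma, adjusted p = 0.988). Its Ts1Rhr libraries all lay lower, and replicate 2 stood well below the other two. Ndufv3, an accessory subunit next to the NADH site, had a log2 fold change of -0.93 (SE 0.37), and Ndufs5 of -2.88 (SE 0.95), with the library at 0.01 included. At the other end, after Cox7a1 (described above), Ndufb7 was at 0.21 (SE 0.33), Ndufa1 at 0.18 (SE 0.26) and Atp5s at 0.23 (SE 0.35), all with adjusted p of 0.988 by limma.

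Complexes V and II had the lowest medians of this contrast, at -0.43 and -0.44 on normalised FPKM, with 14 of 15 and 4 of 4 genes lower. Complex III was at -0.32, complex I at -0.28 and complex IV at -0.21. On raw FPKM the medians were -0.19 for complexes V and II, -0.14 for complex I, -0.05 for complex III and 0.03 for complex IV. All contrasts share libraries, so their values are not separate evidence.

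Among the 82 genes, Atp5j, Atp5o and Ndufb4 lie on chromosome 16, before Cbr1 in RefSeq order, so 0 of 82 lie inside the triplicated segment. Atp5o, the peripheral stalk subunit that joins F1, had 411, 454 and 367 raw FPKM in Ts1Rhr, against 493, 498 and 402 in WT, overlapping (log2 -0.18, SE 0.18, limma, adjusted p = 0.542). Atp5j, the stalk factor F6, had 64.0, 62.2 and 39.0 raw FPKM in Ts1Rhr, against 78.3, 65.8 and 64.0 in WT, and Ndufb4, a complex I accessory subunit, had 43.0, 23.6 and 25.3 raw FPKM in Ts1Rhr, against 46.4, 32.2 and 50.1 in WT. Neither passed (limma on raw FPKM, adjusted p = 0.228 and 0.307), and none of the 3 was higher in Ts1Rhr on average on either table.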

How the data were processed

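RNA-seq of 9 mouse pro-B cultures was analysed from 2 tables of FPKM that the authors deposited. Per the submitters' processing notes, the tools were HISAT and Cufflinks 2.0.0 and the build was mm9. The settings, annotation and use of strand: not given in the sources used here. How the authors scaled their deposited normalised FPKM is likewise not given. From its values it holds about 0.1 FPKM added to each gene, and its correction differs with level and library. Since FPKM hold no counts, count models were not applied, and the depth is unknown.

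Of 23398 rows, 92 spike-in and 27 date rows were left out, and 10878 whose raw FPKM averaged 1 or more were tested with limma 3.58.1 in R 4.3.3 (intensity trend, 1 mean per group over all 9 libraries, two-sided, Benjamini-Hochberg over all tested genes, threshold 0.05). The main fit used log2 of normalised FPKM, and raw values entered as log2(FPKM + 0.1). Folds on this scale understate changes of low genes. The script was tested on simulated data. The labels tie equal replicate numbers to nothing, so no pairing was used in the main fit. Deviations from the group means correlated between -0.13 and 0.16 for equal numbers and between -0.28 and 0.21 for unequal ones. With 3 libraries a group, such values cannot show whether a batch was shared.

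Genes named were, in each comparison, the 4 highest and 4 lowest by moderated statistic, isoform families, the extremes in level of each complex, genes under the filter, and genes on chromosome 16. Members and lists were chosen with earlier results of these data known. RefSeq (GRCm38.p6) gave names, gene order and promoters, not coordinates of the files, and matched 82 of 82 symbols. GENCODE transcripts gave lengths, and BLAST 2.17.0 the near-identical copies. Python 3.11.15 was used for the summaries. Alternatives tried were the raw table, shifting libraries to 1 median, 1 spike-in factor per library, a pseudocount of 1, no filter or one of 5 FPKM, no trend, 2 groups in the fit, a replicate block, and leaving out each library.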

Additional observations from a re-analysis of the deposited data

How the results depend on the processing

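In Ts1Rhr against WT, 0 respiratory chain genes were called on normalised FPKM and 1 under each of 3 alternatives: Uqcr11 on raw FPKM and after shifting libraries to the same median, and Ndufs5 with the replicate number as a block. All genes called there were 62, against 963 on raw FPKM (1 to 1276 with 1 library left out, with 0 to 3 respiratory chain genes among them), 693 with equal medians, 8 with no filter, 267 with only the 2 groups in the fit, 119 with the replicate block, and 4 to 203 with 1 library left out. In HMGN1_OE against WT they were 10, against 4 on raw FPKM and with no filter, 19 with 1 added or with no trend, 18 with only the 2 groups, and 1 to 17 with 1 library left out. In Ts1Rhr against HMGN1_OE they were 0, against 1 with 1 added, 5 with the replicate block, and 0 to 3 with 1 library left out. The cause of these shifts was not tested. No respiratory chain gene was called in any of these comparisons with 1 library left out on normalised FPKM.

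The median fold of the respiratory chain genes relative to all tested genes was -0.35 in Ts1Rhr against WT, between -0.48 and -0.25 with 1 library left out and -0.19 on raw FPKM. In HMGN1_OE against WT it was -0.11, between -0.24 and 0.02, above 0 without WT replicate 1 alone. In Ts1Rhr against HMGN1_OE it was -0.23, but -0.086 on raw FPKM. It was between -0.32 and -0.11 with 1 library left out, where -0.11 was without Ts1Rhr replicate 2. With 1 spike-in factor per library on raw FPKM, this relative median equals the raw value by construction, since all genes of a library shift alike. Counts by direction with libraries left out were chosen after seeing the data: 42 to 67 lower in Ts1Rhr against WT, 20 to 70 higher in HMGN1_OE against WT (31 on raw FPKM), and 51 to 71 lower in Ts1Rhr against HMGN1_OE. Of 427 refits of 24 named fold changes, 420 kept direction and call and 4 reversed: Cox7c in HMGN1_OE against WT (0.12) and Atp5s (-0.099) and Ndufa1 (-0.023) in Ts1Rhr against HMGN1_OE without HMGN1_OE replicate 1, and Ndufb7 (-0.028) without HMGN1_OE replicate 3. With 1 library left out they ranged from -0.75 to 0.12 for Cox7c, -0.099 to 0.59 for Atp5s, -0.023 to 0.40 for Ndufa1 and -0.028 to 0.57 for Ndufb7. Allowing 1 mismatch raised the share of promoters with the NRF1 core to 50.7%, against 36.4% of all tested genes and 21.9% of all genes with promoters. With 3 libraries a group and unknown depth, small differences could not be detected.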

Other observations

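Most regulators of mitochondrial biogenesis were higher than in WT in HMGN1_OE too. In HMGN1_OE against WT, 17 of 18 were higher on normalised FPKM, with a median log2 fold change of 0.47 against 0.21 over all tested genes, and 15 of 18 on raw FPKM (median 0.22 against 0.01), with 0 called by limma on either table. Between the mutants, Ts1Rhr against HMGN1_OE, the median was 0.02, with 10 of 18 higher. Tricarboxylic acid cycle genes were higher in HMGN1_OE than in WT in 16 of 16 on normalised FPKM (median 0.18 against 0.21 over all tested genes, of which 7904 of 10878 were higher, 0 called) and in 12 of 16 on raw FPKM.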
